A study of Homo sapiens with 2 samples.

Results

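The plasminogen activators, the urokinase receptor and a group of serpins were examined in Ca9-22 cells, an established human line from a gingival squamous carcinoma. The members were PLAU, PLAUR, PLAT, SERPINE2, SERPINB2 and SERPINB5, and every probe set that the platform annotation assigns to 1 of them alone was used. This gave 10 of the 54675 probe sets on the array, for 5 of the 6 genes. No probe set carried the name of SERPINB2 alone in the annotation used here, so its expression was not analysed here. One group was Ca9-22 cells stably transduced with a vector for RUNX2, a runt-domain transcription factor best known from bone, and the other was Ca9-22 cells transduced with the empty vector. Cells of both groups had gone through blasticidin selection, and the labels do not say whether a group is a clone or a pool. Each group is 1 array of total RNA, so the comparison has no replicates and was not tested, and precision is limited by there being 1 array on each side.

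Plasminogen activators are serine proteases that cut the inactive precursor plasminogen to plasmin, which dissolves fibrin and degrades matrix proteins. Urokinase, the product of PLAU, acts mainly at the cell surface, where it binds the receptor encoded by PLAUR, a protein held in the membrane by a lipid anchor. Tissue plasminogen activator, the product of PLAT, is best known for dissolving clots. Serpins are protease inhibitors that trap a target protease by a change of shape. SERPINE2 (protease nexin) inhibits thrombin and both activators, and SERPINB2 inhibits urokinase. SERPINB5 (maspin) has the serpin fold, is made by keratinocytes and does not act as a classical inhibitor.

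In the array labelled RUNX2, the transcript of PLAT was 2.28-fold lower. Those of PLAUR and SERPINB5 were 1.93-fold and 1.90-fold higher by their brightest probe sets, just short of 2-fold. The other PLAUR probe sets were 1.73-fold and at least 1.34-fold higher. SERPINE2 differed little, and PLAU was not above the floor on either array. Levels are intensities in arbitrary units after the array labelled RUNX2 was multiplied by 0.966. The floor is the median of each array, 51.8 for the array labelled RUNX2 and 55.3 for the empty vector array, and a probe set is called measured if it exceeds the floor on at least 1 array. A call means a ratio of at least 2-fold, which is a rule of size and not a test. Of the 10 probe sets, 6 were measured, from 4 genes, and 4 were below the floor on both arrays. Among the measured probe sets, 0 were at least 2-fold higher, against 1.64% of all 23332 measured probe sets with 1 gene name, and 1 was at least 2-fold lower, against 1.12%. Counted as genes, 0 members passed 2-fold upwards (1.42% of all 12729 measured genes) and 1 downwards (1.47%). At 1.5-fold, 3 measured member probe sets were higher (7.08% of all) and 1 was lower (6.09%), which is 2 genes higher (5.77%) and 1 gene lower (6.87%). At 4-fold, 0 members passed, where 0.141% of all measured probe sets were higher and 0.0686% lower, and 0.173% of measured genes were higher and 0.0864% lower. With the medians of the arrays made equal, 230 genes were higher and 137 lower in place of 181 and 187, and 505 probe sets were higher and 191 lower in place of 383 and 261. With so few members these counts say nothing about the group as a whole.

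**Figure D1:**
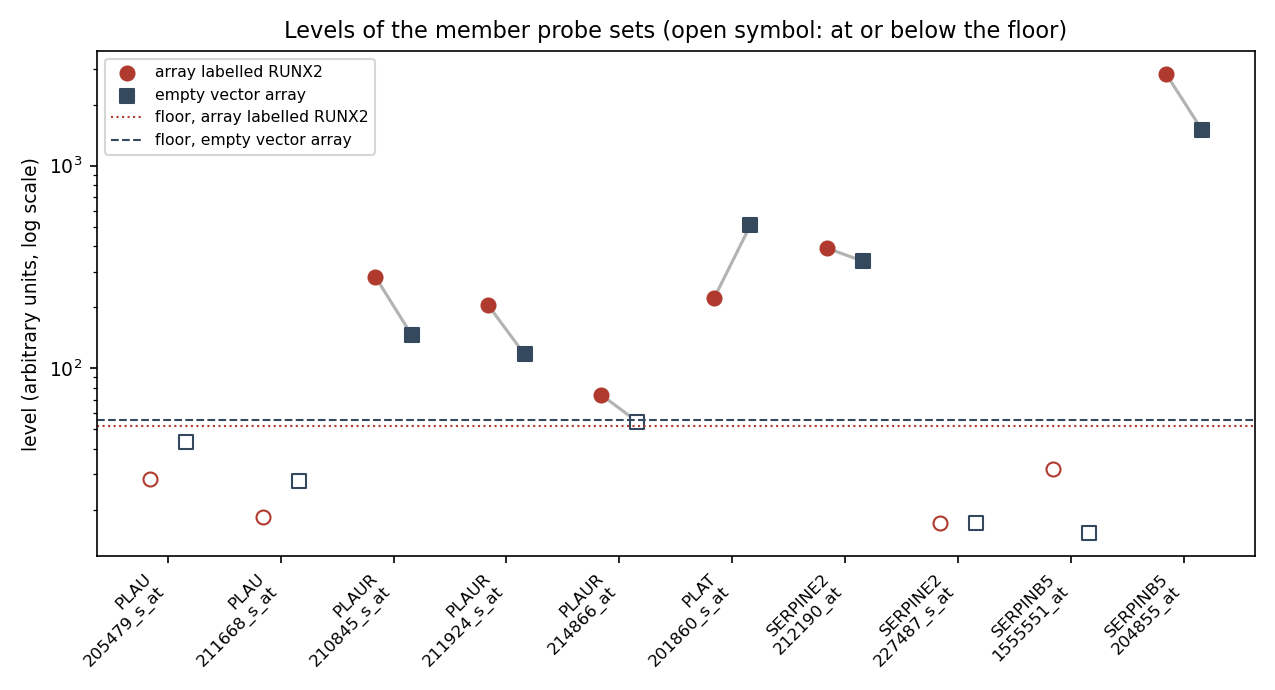
Level of each of the 10 member probe sets (arbitrary units, log axis) on the array labelled RUNX2 (circles) and the empty vector array (squares), 1 array each. Lines mark the floors, 51.8 and 55.3, and open symbols lie at or below the floor. Both PLAU probe sets are open on both arrays, the PLAUR circles lie above their squares, and the PLAT circle lies below its square.

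Of the activators, PLAT was represented by the single probe set 201860_s_at. Its level was 223 on the array labelled RUNX2 and 508 on the empty vector array. Both values were well above the floors, at percentile 76.5 of the array labelled RUNX2 and 87.4 of the empty vector array, and the log2 ratio was -1.19. Only 0.621% of all measured probe sets had a ratio as low or lower, and 0.635% of the 4251 measured probe sets within 0.5 log2 units of its mean level did. At the gene level, 106 of the 12729 measured genes were as low or lower. PLAT had only this 1 probe set, so the spread between probe sets is not known for it. In RNA from a whole culture, fewer cells that make a transcript and less of it per cell cannot be told apart, and this holds for each result given here.

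PLAU, the other activator, was read by 205479_s_at and 211668_s_at. The level of 205479_s_at was 28.5 on the array labelled RUNX2 and 43.1 on the empty vector array. The level of 211668_s_at was 18.5 on the array labelled RUNX2 and 27.7 on the empty vector array. All 4 values were below the floor, between percentiles 25.3 and 43.6 of their arrays, and values below the floor have no order, so no ratio is given for urokinase. A signal this low does not show that the transcript is absent.

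PLAUR, which encodes the receptor of urokinase, had 3 probe sets, all measured and all higher in the array labelled RUNX2. The brightest, 210845_s_at, read 282 on the array labelled RUNX2 and 146 on the empty vector array, a log2 ratio of 0.95. The level of 211924_s_at was 204 on the array labelled RUNX2 and 117 on the empty vector array, a log2 ratio of 0.79 or 1.73-fold. The third, 214866_at, read 73.8 on the array labelled RUNX2 and 54.4 on the empty vector array, where it lay just under the floor, so its difference is at least 1.34-fold, a bound of 0.42 on the log2 scale. With the third ratio taken at its lower bound, the 3 ratios spanned 0.53 log2 units. The SD between measured probe sets of 1 gene, bounds included, was 0.293 over the 6165 genes with 2 or more of them. It is a spread within this pair of arrays, from sources that were not told apart, and not a replicate error. Ratios as high as that of 210845_s_at were found in 1.92% of measured probe sets, and in 2.54% of those of like level.

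Among the serpins, SERPINB5 was read by 204855_at with 2842 on the array labelled RUNX2 and 1497 on the empty vector array. Both values were high on their arrays, at percentile 98.2 of the array labelled RUNX2 and 95.9 of the empty vector array, and the log2 ratio was 0.92. A ratio as high was found in 2.04% of measured probe sets and in 2.01% of the 1146 within 0.5 log2 units of its level. Its other probe set, 1555551_at, stayed below the floor, at 31.8 on the array labelled RUNX2 and 15.3 on the empty vector array, and gives no ratio. SERPINE2 was read by 212190_at with 391 on the array labelled RUNX2 and 337 on the empty vector array, a log2 ratio of 0.22. This is less than the SD of 0.293 between probe sets of a gene, and 24.7% of measured probe sets had a ratio as high. The second probe set of SERPINE2, 227487_s_at, was below the floor, at 17.3 on the array labelled RUNX2 and 17.2 on the empty vector array. The median log2 ratio of all measured genes was -0.06, while each ratio and the 2-fold rule are taken against 0.

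**Figure D2:**
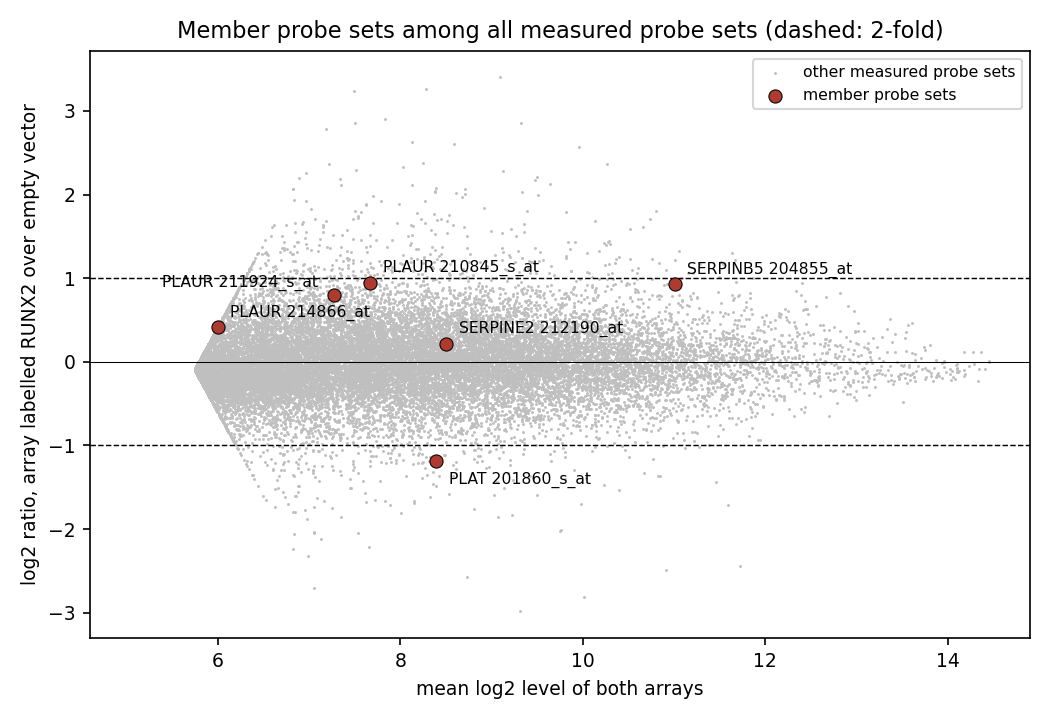
Log2 ratio of the array labelled RUNX2 over the empty vector array against the mean log2 level of both arrays for every measured probe set with 1 gene name (grey) and the 6 measured member probe sets (red). Dashed lines mark 2-fold. PLAT lies below the lower line at -1.19, and PLAUR (210845_s_at) and SERPINB5 lie just under the upper line at 0.95 and 0.92.

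Promoter sequence was available for 5 members, in 7 windows, as RefSeq start sites of build GRCh38.p14, and PLAT had no entry. The 250 bases before each start were searched for TGANTCA, a loose form of the AP-1 letters with any base allowed in the middle. This pattern reads the same on both strands. They were also searched for GGAA on either strand, the core letters of ETS factors. The 2 motifs cannot overlap. The promoters of the 2 members near 2-fold upwards by their brightest probe set are shown, 5′ to 3′ and ending at the base before the start. TGANTCA matches are in capitals. The PLAUR window is chr19:43670170-43670419 on the minus strand, and the SERPINB5 window is chr18:63476708-63476957 on the plus strand.
PLAUR: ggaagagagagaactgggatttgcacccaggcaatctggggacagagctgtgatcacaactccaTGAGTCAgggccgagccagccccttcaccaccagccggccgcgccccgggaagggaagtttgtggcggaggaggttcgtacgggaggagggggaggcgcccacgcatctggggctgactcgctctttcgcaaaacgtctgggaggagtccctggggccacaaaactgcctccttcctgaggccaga
SERPINB5: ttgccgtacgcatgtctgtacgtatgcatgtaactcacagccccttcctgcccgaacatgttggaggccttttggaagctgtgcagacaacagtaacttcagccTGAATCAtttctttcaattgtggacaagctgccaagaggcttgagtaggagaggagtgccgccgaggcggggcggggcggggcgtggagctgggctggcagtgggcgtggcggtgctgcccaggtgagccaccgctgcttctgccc
PLAUR held TGAGTCA, whose first base lay 186 bases before the start, and SERPINB5 held TGAATCA at 146 bases before it. SERPINB2, whose level is not known here, also held 1 match, TGAATCA at 102 bases. The 2 windows of PLAU and the 2 of SERPINE2 held 0 matches. TGANTCA was present in 6.57% of all 35116 promoter windows of the same length. GGAA was common, with 4 matches in PLAUR, 2 in SERPINB5, 3 and 4 in the PLAU windows and 1 in each SERPINE2 window, and 92.7% of all windows held it. A match describes the letters of the window and is neither a bound site nor a cause of a difference, and a window without one says nothing about the factor.

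SERPINB5 stands in a row of clade B serpins on chromosome 18, and the ratios of its measured neighbours, by the brightest probe set of each, lay between -0.13 and 0.29. Of 10 such genes listed there in assembly GRCh38.p14, 9 had their own probe set, of which 6 were measured, SERPINB5 included. SERPINB13, a serpin of stratified epithelium, had a log2 ratio of 0.29 in its brightest probe set, with 4117 on the array labelled RUNX2 and 3359 on the empty vector array, and between 0.08 and 0.70 in its other measured ones. SERPINB4 and SERPINB3, the squamous cell carcinoma antigens, had 0.21 and 0.08, SERPINB7 had 0.13 and SERPINB8 had -0.13, with a bound of at least 0.60 in its other probe set. SERPINB3 and SERPINB4 are near-identical copies, and a probe set of one may also read the other. SERPINB12, SERPINB11 and SERPINB10 were below the floor on both arrays. On chromosome 6, SERPINB1, an inhibitor of neutrophil elastase, had -0.67 in its brightest probe set, from 2463 on the array labelled RUNX2 and 3908 on the empty vector array, but -0.16, -0.08 and 0.07 in its others.

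Across the wider serpin superfamily the few calls were downwards, while the measured genes went both ways. Of 29 other serpin genes, pseudogenes included, with a probe set of their own, 15 were measured. Of these, 7 had a ratio above 0 and 8 below 0, with a median log2 ratio of -0.13 beside -0.06 for all measured genes. None reached 2-fold upwards (0 genes) and 3 reached 2-fold downwards (20.0%, beside 1.47% of all measured genes). This list was also chosen with earlier results of these data known. Each of the 3 was read by a single probe set, and the count was 1 with the floor at the 75th percentile or with an offset in its place. SERPINA5, the protein C inhibitor, which also inhibits urokinase, had 334 on the array labelled RUNX2 and 947 on the empty vector array, 2.84-fold lower. SERPINA3, antichymotrypsin, had 76.3 on the array labelled RUNX2 and 190 on the empty vector array, 2.48-fold lower. SERPINF1, a secreted serpin that does not inhibit proteases and is known as pigment epithelium-derived factor, had 174 on the array labelled RUNX2 and 392 on the empty vector array, 2.25-fold lower. SERPINA1, the inhibitor of neutrophil elastase in plasma, had a log2 ratio of 0.73 with a bound of at least 0.76 in another probe set. SERPINA9 had -0.35.

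The other genes of the plasminogen system went both ways. Of 34 listed genes with a probe set of their own, 21 were measured, with a median log2 ratio of -0.00. Of these, 2 reached 2-fold upwards (9.52%, beside 1.42% of all measured genes) and 1 downwards (4.76%, beside 1.47%). The list was chosen with earlier results of these data known, so these shares are not evidence about the system. F3, tissue factor, which starts coagulation, had 1511 on the array labelled RUNX2 and 334 on the empty vector array, 4.52-fold higher in its single probe set. The matricellular protein gene THBS1 was higher too, 2.07-fold by its brightest probe set and 2.31-fold and 1.59-fold by the other measured ones, and passed 2-fold neither as the mean over its probe sets nor with the offset. TMPRSS4, a membrane serine protease, was 4.08-fold lower, and ST14, matriptase, which can activate the urokinase precursor, had log2 ratios of -0.44 and -0.43 by its measured probe sets.

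Plasminogen itself, PLG, was below the floor on both arrays, as were the 3 fibrinogen chains. Its cell-surface receptors were measured and none passed 2-fold in the probe set that stood for the gene. ANXA2, the annexin subunit of a plasminogen-binding complex, read 15899 on the array labelled RUNX2 and 15936 on the empty vector array. Its partner S100A10 had a log2 ratio of 0.36 in the brightest probe set, but 2.49-fold higher in 238909_at, with 883 on the array labelled RUNX2 and 355 on the empty vector array. The receptor PLGRKT had -0.26 and ENO1, a glycolytic enzyme that also binds plasminogen at the surface, had 0.36. Of the endocytic receptors that clear inhibited activators and their relatives, LRP8 had between 0.59 and 0.74 in its 3 probe sets, SORL1 between -0.70 and -0.49, and LRP1 -0.28. CTSB, a cysteine protease that can activate the urokinase precursor, had between -0.69 and -0.25 in 5 probe sets.

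None of the 11 measured partners of the urokinase receptor passed 2-fold in the probe set that stood for the gene, and their median log2 ratio was 0.05. ITGA3, an integrin chain that binds laminin, had 0.40 and ITGB5, a chain of a vitronectin receptor, had between -0.80 and -0.36. ITGB1 and ITGAV, with 0.05 and 0.06, differed little. CAV1, the coat protein of caveolae, had 0.24. The probe sets of EGFR disagreed, since 224999_at had 0.45 and 201983_s_at -0.00, while 201984_s_at read 1712 on the array labelled RUNX2 and 5592 on the empty vector array, 3.27-fold lower.

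**Figure D3:**
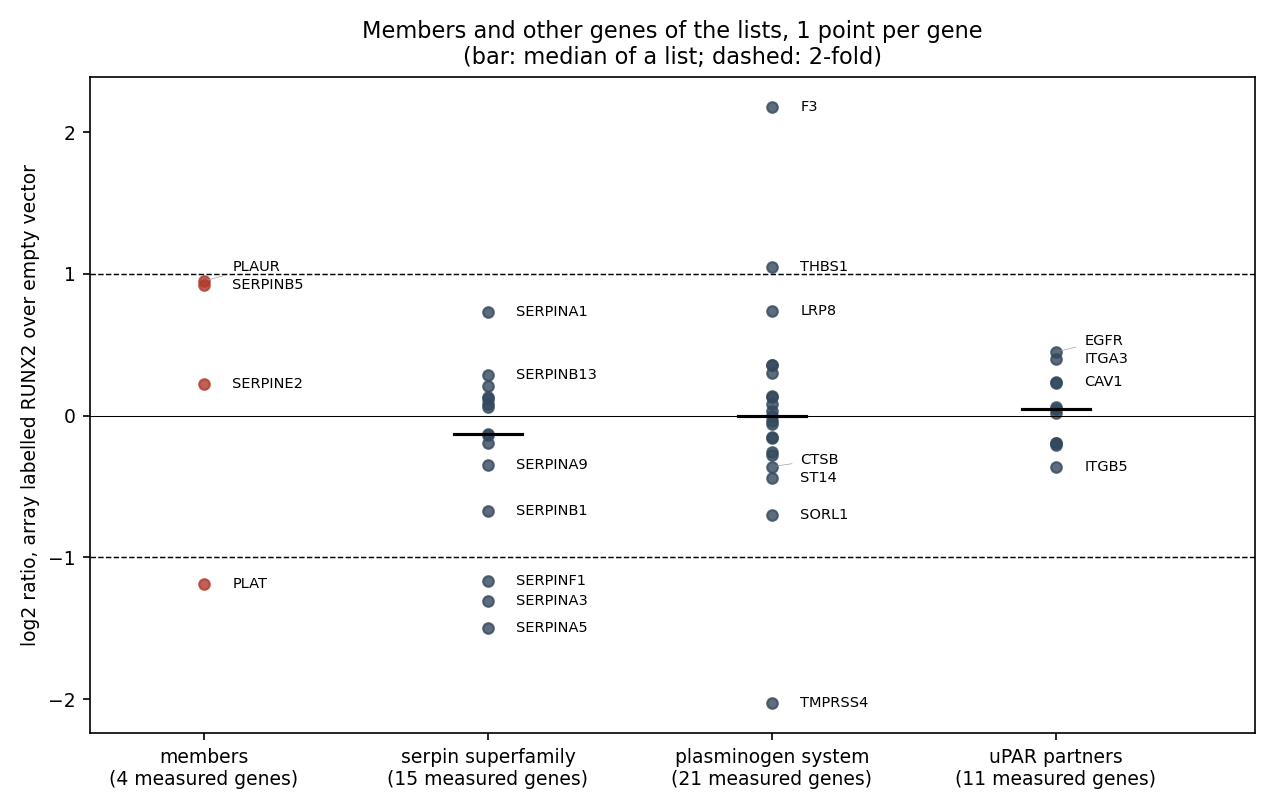
Log2 ratio of the array labelled RUNX2 over the empty vector array for the 4 measured members and for the measured genes of the serpin superfamily, the plasminogen system and the partners of the urokinase receptor, 1 point per gene from its brightest probe set, bars at the median of each list and dashed lines at 2-fold. F3 and THBS1 lie above the upper line, and TMPRSS4, SERPINA5, SERPINA3, SERPINF1 and PLAT below the lower one.

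Direction rests on the labels of the arrays. Of 6 RUNX2 probe sets 3 were measured. The brightest, 232231_at, which stood for the gene, read 433 on the array labelled RUNX2 and 1746 on the empty vector array, so that RUNX2 itself counts as 4.03-fold lower in the array that carries its name. In contrast, 216994_s_at was 4.17-fold higher there, with 854 on the array labelled RUNX2 and 204 on the empty vector array, and 221282_x_at was 3.47-fold higher. All 7 squamous epithelial markers with a probe set of their own were measured on both arrays, with a median log2 ratio of 0.47 and 1 gene past 2-fold upwards. That gene was KRT14, a basal keratin, with 1579 on the array labelled RUNX2 and 586 on the empty vector array, 2.69-fold higher. The keratins KRT16 and KRT5 had log2 ratios of 0.74 and 0.51 and SFN, an epithelial adaptor protein gene, had 0.47. The desmosomal cadherins DSC3 and DSG3 had -0.33 and -0.08, and E-cadherin, CDH1, had 0.01. The summed level over all probe sets of the squamous markers was 54190 on the array labelled RUNX2 and 41506 on the empty vector array. This sum is weighted to bright genes with several probe sets, above all SFN. Its probe set 33322_i_at alone read 14690 on the array labelled RUNX2 and 10612 on the empty vector array. The sum was higher in the same array as SERPINB5, which keratinocytes also make, but DSC3, DSG3 and CDH1 did not share this difference. Of the markers of other cells that make activators or serpins, 1 of 6 fibroblast genes was measured (COL1A1, with a log2 ratio of -0.32), 2 of 5 endothelial genes (PECAM1 with -0.32 and VWF with -0.44, both near the floor) and 1 of 6 leukocyte genes (LCP1, with 0.47). PECAM1 was measured by 1559921_at alone, and its other probe sets were below the floor on both arrays. The summed levels over all probe sets were 2259 on the array labelled RUNX2 and 2738 on the empty vector array for fibroblast markers, 264 on the array labelled RUNX2 and 344 on the empty vector array for endothelial markers, and 1295 on the array labelled RUNX2 and 1040 on the empty vector array for leukocyte markers. The leukocyte sum is mostly LCP1, which read 1073 on the array labelled RUNX2 and 775 on the empty vector array. The other leukocyte genes were below the floor on both arrays. In the same way the fibroblast sum is mostly COL1A1, whose 1556499_s_at read 1553 on the array labelled RUNX2 and 1937 on the empty vector array. No listed marker is at 0, since the deposited intensities are all positive. Their part in the differences of the members was not tested.

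The ratio of PLAT kept its direction and its call in all 9 alternatives that gave it a value, between -1.21 and -1.04. That of SERPINB5 lay between 0.90 and 1.02 in 10 alternatives and that of PLAUR between 0.42 and 1.04. Equal medians as the scale put both just past 2-fold, at 1.02 for SERPINB5 and 1.04 for PLAUR. SERPINE2 lay between 0.18 and 0.31. PLAT, SERPINB5 and SERPINE2 each had 1 measured probe set as reported, which cleared the other floors on both arrays. Other floors, no floor and the mean over probe sets therefore could not move their ratios. For SERPINB5 and SERPINE2, leaving out _x_at and _s_at probe sets could not either.

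**Figure D4:**
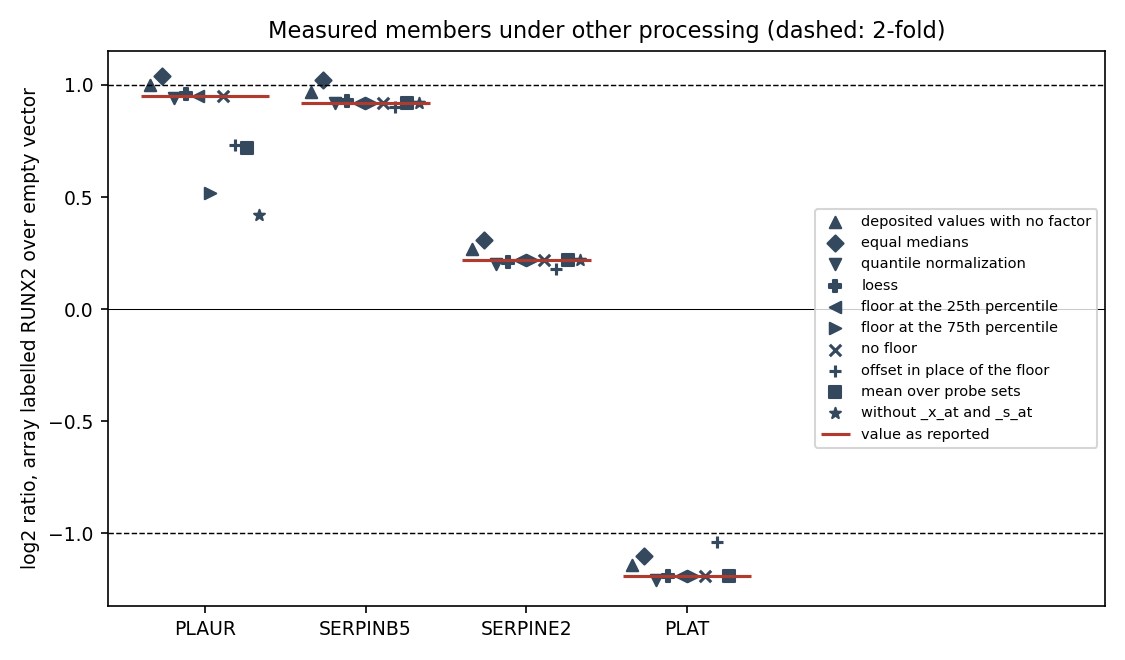
Log2 ratio of the array labelled RUNX2 over the empty vector array for the 4 measured members as reported (red line) and under each alternative that gives a value (symbols), with dashed lines at 2-fold. PLAT stays below the lower line, and SERPINB5 and PLAUR cross the upper line with equal medians. PLAUR spreads most, down to 0.42, which is a lower bound.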

How the data were processed

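Biotin-labelled cRNA from total RNA was hybridised to Affymetrix arrays, as the labels' protocols state, with 1 array for each group. Intensities were deposited by the authors on a linear scale, 1 for each probe set, and the submitters' processing notes name MAS5. Its settings, scaling target and detection calls are not given in the sources used here. The 62 control probe sets were left out and the array labelled RUNX2 was scaled to equal 2% trimmed means (199 for the empty vector array, 206 as deposited for the other). Values below the floor were raised to it, which makes the ratio a bound. Probe sets were named from the platform annotation (41091 with 1 gene symbol, 1801 with several, which named no gene, 11721 unnamed), with symbols updated by Entrez ID from a RefSeq table. The brightest measured probe set stood for its gene. With 2 arrays no likeness of patterns between genes was computed. The text names all members and, per list, every gene at least 2-fold either way and up to 4 others with the widest ratio; S100A10, PLGRKT, ANXA2, ENO1, LRP1, ITGB1, ITGAV and clade B neighbours were added for context after their values were seen. Members and lists were chosen with earlier results of these data known. A planned comparison of the members' proteins was not made. Alternatives covered the scale, the floor, the threshold and the probe sets used. Scripts (Python 3.11.15, pandas 2.3.3, numpy 2.4.6, statsmodels 0.14.6) were tested on simulated arrays with 4-fold changes in probe sets well above the floor. Recovery of smaller changes, or of changes near the floor, was not tested.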

Additional observations from a re-analysis of the deposited data

How the results depend on the processing

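With 1 array per group no replicate could be left out. No paired analysis was possible because each group holds 1 sample and no test was made. PLAT, the only called member, kept its sign in the 9 alternatives that gave it a ratio, of which only the other scales and the offset could move it. PLAT has no ratio without _x_at and _s_at probe sets, and another threshold does not change a ratio. PLAUR moved to a bound of 0.52 with the floor at the 75th percentile, where the empty vector array lay below it, and to a bound of 0.42 without probe sets ending in _x_at or _s_at, which leaves 214866_at. In the same way its probe set 211924_s_at had a bound of 0.05 at the 75th percentile. The count of member genes at least 2-fold higher, 0 as reported, was 2 with equal medians and 2 at 1.5-fold, and that of member probe sets was 2 and 3. The count of members at least 2-fold lower, 1 for genes and for probe sets, was 0 at 4-fold and 0 without _x_at and _s_at probe sets, since PLAT has no other. The 2 higher genes of the plasminogen system were 1 with the mean over probe sets, 1 with an offset equal to the floor added to all values, 1 without _x_at and _s_at and 1 at 4-fold, and the 1 lower gene became 2 at 1.5-fold. The 3 lower serpins were 1 with the floor at the 75th percentile, 1 with an offset and 0 at 4-fold, and 1 serpin was higher at 1.5-fold. Over all measured genes, 181 higher and 187 lower became 112 and 79 with the floor at the 75th percentile, 114 and 91 with an offset, 735 and 875 at 1.5-fold, and 22 and 11 at 4-fold. Equal medians moved the balance of the calls, as given above, without moving a count over all genes or all probe sets by over 1.5 times. Over all measured probe sets, 383 higher and 261 lower became 189 and 106 with that floor, 202 and 126 with an offset, 1652 and 1420 at 1.5-fold, and 33 and 16 at 4-fold, and 238 were higher without _x_at and _s_at. With the floor at the 25th percentile, PLAU had log2 ratios of -0.60 and -0.58, and 1555551_at of SERPINB5 a bound of 0.67. Apart from the floor, the threshold and the probe sets left out, whose own construction changes what is counted, the cause of these moves was not tested.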
